A study of Oryza sativa with 6 samples.

Results

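The protein phosphatase 2C (PP2C) family of rice was compared between sro and wild type young inflorescences. Members were all genes with a symbol or synonym made of PP2C and a number in the RefSeq gene table, joined by gene number to array probe sets that name a single gene. The gene table lists 60 such genes, of which 55 were measured, on 72 probe sets, among the 17905 genes and 57258 probe sets of the whole array. OsPP2C41, OsPP2C49, OsPP2C50, OsPP2C65 and OsPP2C77 had no such probe set and were not analysed here. Each gene is represented by its probe set with the highest mean over the 6 arrays, and the others are given beside it.

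PP2C enzymes are serine/threonine phosphatases that need magnesium or manganese ions, and plants have many more of them than animals do. The best known, clade A, are the negative regulators at the core of abscisic acid signalling. They keep SnRK2 kinases (called SAPK in rice) dephosphorylated and inactive until the hormone binds its PYL receptors, which then seize the phosphatase and set the kinases free to phosphorylate bZIP transcription factors. Transcripts of clade A phosphatases are themselves known to be induced by abscisic acid, a stress hormone that also acts in seeds and reproductive organs. Other clades act on MAP kinases, on immune receptors and, in Arabidopsis, on the plasma membrane proton pump.

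The mutant group holds 3 arrays of sro and the control group 3 arrays of wild type (Japonica variety 9522), labelled as biological replicates. All plants stood in a paddy field with no special treatment, and inflorescences 4 to 5 mm long were taken, the length at which, per the series' design text, SRO expression is highest and the inner floral organs are arising. The comparison asks which transcripts differ in sro at that time. The labels do not describe the sro lesion, its background or the number of lines, and no table used here names the SRO gene, so its own transcript was not checked.

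Values are log2 intensities of Affymetrix rice arrays, a scale on which a difference of 1 is a 2-fold change. Arrays of the same genotype correlated at 0.997 to 0.998 over all probe sets, and arrays of different genotypes at 0.992 to 0.994. Of 17 measured inflorescence and flower markers, 16 lay above the mean of the control probe sets for the fungus Magnaporthe, which stand for a level without target (4.69 in sro and 4.65 in wild type), and FZP lay below it in both groups. Among the 17, 5 were called higher in sro and 1 lower. The lower one was the meristem marker LAX1 (7.32 in sro and 9.30 in wild type, log2 change -1.98, limma adjusted p = 0.0107). Summed markers of late anther and pollen lay between 10.43 and 10.56 (log2) in sro, against 7.15 to 8.95 in wild type, with 3 of 4 called higher and RTS and OsC6 below the Magnaporthe mean in wild type. Summed green leaf markers (3 genes, with CAB2R called lower and RBCS1 below the Magnaporthe mean in both groups) lay between 10.02 and 10.19 in sro, against 10.16 to 10.34 in wild type, and seed storage and root markers were not called. The dap labelling spike, at its 5 prime end, read 9.83, 7.40 and 8.95 in sro replicates 1, 2 and 3, against 7.01 to 7.24 in wild type. The part of these differences in the PP2C results was not tested. In whole inflorescences, fewer cells of a type and less RNA per cell cannot be told apart.

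Of the 55 PP2C genes, 10 rose and 9 fell in sro at a limma adjusted p under 0.05, and 36 were not called. Thus 34.5% of the family was called, against 26.6% of all genes with 1 probe set each (14.6% of all probe sets). Adjusted over 1 probe set per gene alone, 22 of the 55 members were called (40%), against 38% of all genes, with 20% of members and 11.2% of all genes higher, and 20% of members and 26.8% of all genes lower. With adjustment over all probe sets, the share called higher was 18.2% of the family and 7.28% of all genes (5.59% of all probe sets). The share called lower was 16.4% of the family and 19.4% of all genes (9.04% of all probe sets). These shares compare sets of unlike signal. The mean signal lay below the Magnaporthe mean in 1 of the 55 members. It did so in 2679 of all 17905 genes and 23138 of all 57258 probe sets. The part of low signal in the shares was not tested. The family's median log2 change was -0.022, against -0.055 over all genes, and its median absolute change was 0.16, against 0.15. In 31 of the 55 genes the groups did not overlap, 15 with sro above wild type and 16 with sro below it. Over all genes 53.3% did not overlap, 17.5% with sro above and 35.8% with sro below.

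**Figure D1:**
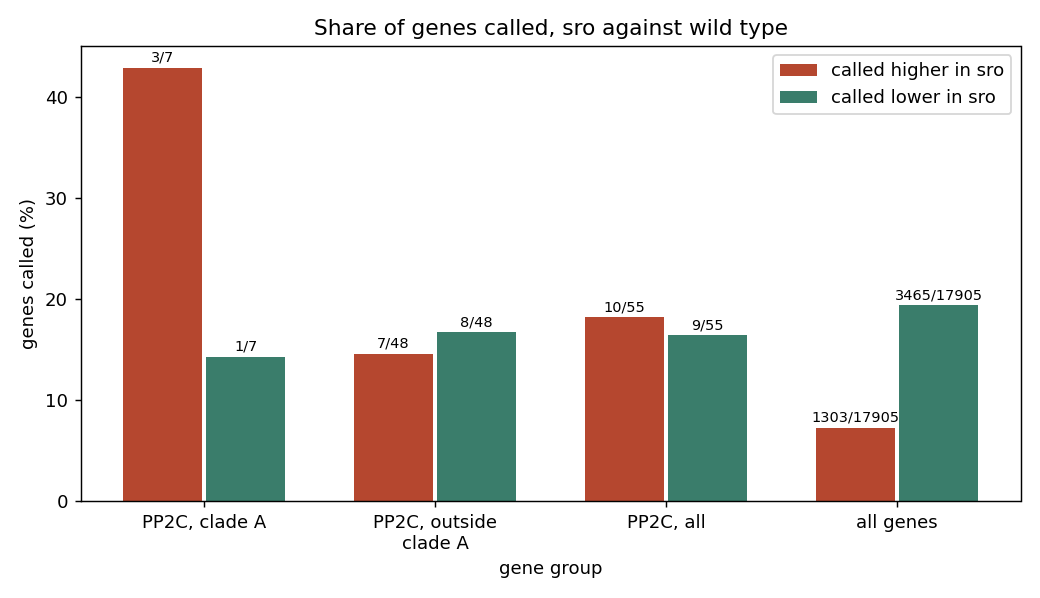
Share of genes called higher or lower in sro against wild type (percent, with counts above the bars) among clade A PP2C genes, other PP2C genes, all 55 PP2C genes and all 17905 genes. Among all genes the lower calls outnumber the higher ones (19.4% and 7.28%), whereas in the family they are 16.4% and 18.2%.

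Changes within the family were mostly small. OsPP2C01, which fell, and OsPP2C29, which rose, were the only members that changed at least 2-fold, and 41 of the 55 log2 changes were under 0.3 in size. Leaving out 1 array at a time gave 6 to 9 rises, all among the 10, and 2 to 10 falls, of which 2 to 8 were among the 9. There were 6 rises when either sro replicate 2 or sro replicate 3 was left out. Leaving out sro replicate 3 gave 2 falls, sro replicate 1 gave 3, wild type replicate 3 also gave 3, and sro replicate 2 gave 5. With sro represented by replicate 2 alone, the array whose dap spike lay nearest to wild type, 2 members were called higher (OsPP2C29 and OsPP2C51) and 1 lower (OsPP2C01). A second quantile normalization left 11 rises and 5 falls.

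**Figure D2:**
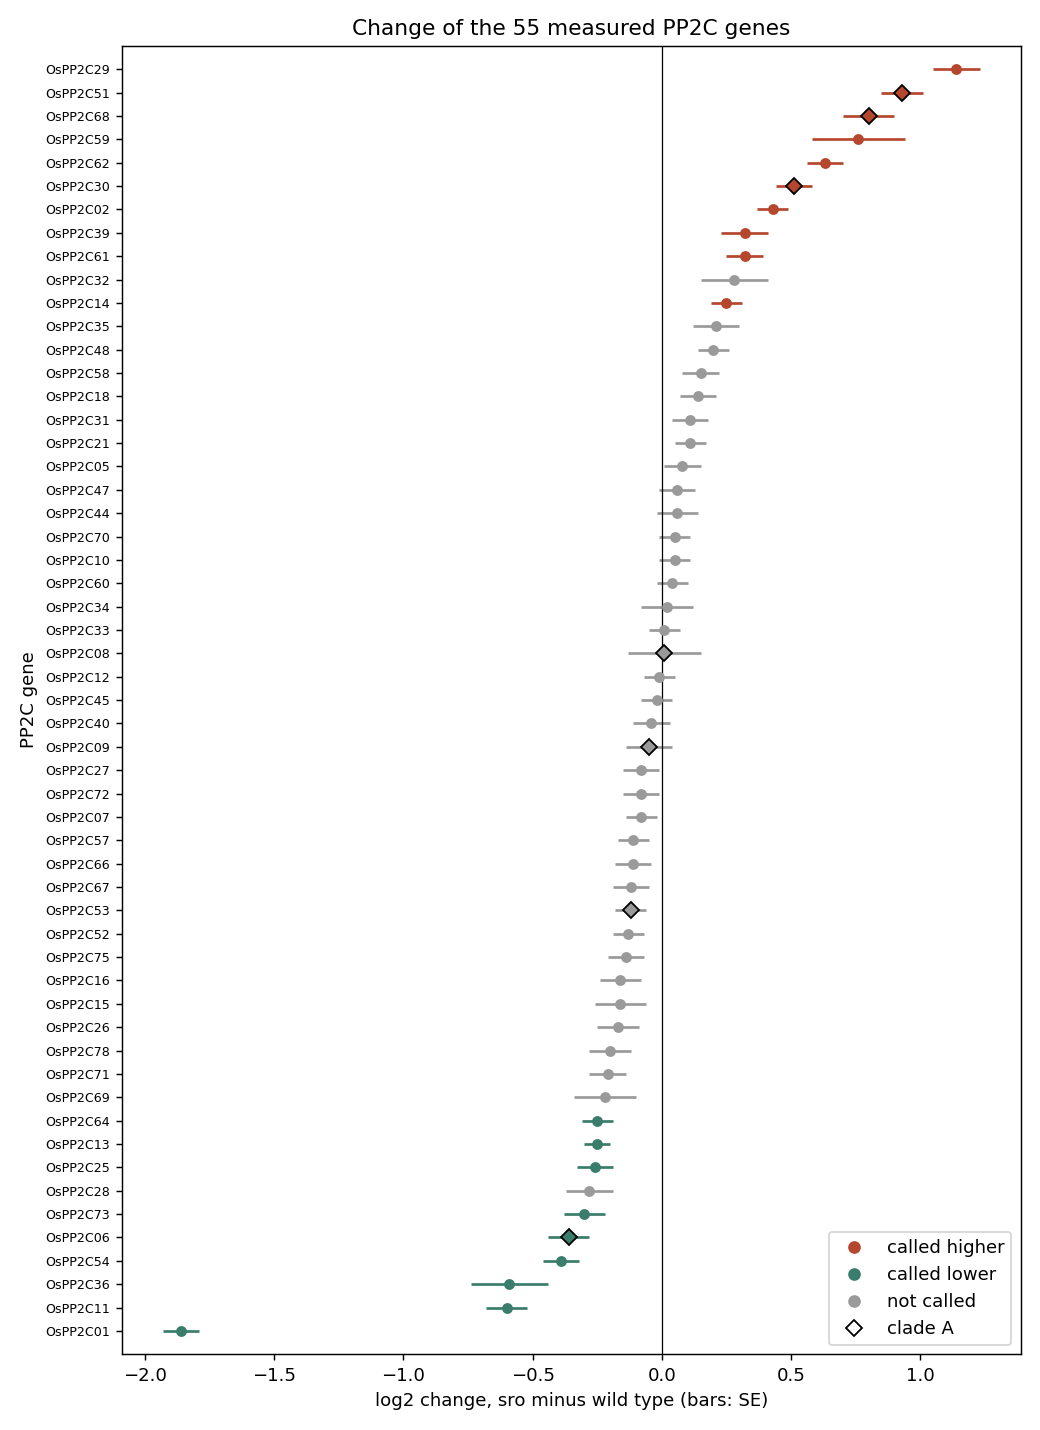
Log2 change, sro minus wild type, of each of the 55 measured PP2C genes, ordered by size, with bars for the standard error. Colours mark genes called higher (10), called lower (9) or not called (36), and diamonds mark the 7 clade A genes. OsPP2C01 stands apart at the lower end (-1.86), and OsPP2C29, OsPP2C51 and OsPP2C68 lead the rises.

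Clade A, the abscisic acid branch, went both ways. Of its 7 measured members, 3 rose (OsPP2C51, OsPP2C68 and OsPP2C30), 1 fell (OsPP2C06) and 3 were not called (OsPP2C08, OsPP2C09 and OsPP2C53). The other 48 members comprised 7 that rose and 8 that fell. The share that rose was 42.9% in clade A and 14.6% in the rest, against 7.28% of all genes. The share that fell was 14.3% and 16.7%, against 19.4% of all genes. The median absolute log2 change was 0.36 in clade A and 0.16 in the rest of the family. Whether clade A differs from the rest was not tested.

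OsPP2C51 (LOC4339671, chromosome 5), an abscisic acid-induced phosphatase that acts in seed germination, read 6.89, 6.93 and 6.84 in sro, against 5.89, 6.11 and 5.89 in wild type. All 3 sro arrays lay above all wild type arrays, with a gap of 0.73, and the change was 1.90-fold (log2 change 0.93, SE 0.08, limma adjusted p = 0.000344). It was called in each of the 6 fits with 1 array left out, at 0.89 to 1.0. Its second, dim probe set averaged below the Magnaporthe mean in both groups and gave 0.20 (limma adjusted p = 0.454).

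OsPP2C68 (LOC4346736 under the symbol PP2C68, chromosome 9), also named OsPP108, makes plants less sensitive to abscisic acid when overexpressed in Arabidopsis. It read 7.63, 7.50 and 7.53 in sro, against 6.54, 6.86 and 6.87 in wild type, so the groups did not overlap and wild type replicate 1 was the lowest array. The gene rose 1.74-fold (log2 change 0.80, SE 0.10, limma adjusted p = 0.00163). OsPP2C30 (LOC4332374, chromosome 3), shown in rice to link an abscisic acid receptor to the kinase SAPK2, read 10.35, 10.38 and 10.36 in sro, against 9.73, 9.94 and 9.88 in wild type. Its sro arrays lay almost together, clear of wild type by 0.41, and it rose 1.43-fold (log2 change 0.51, SE 0.07, limma adjusted p = 0.00265). Both genes were called whichever array was left out, at 0.69 to 0.85 for OsPP2C68 and at 0.45 to 0.56 for OsPP2C30.

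OsPP2C06 (LOC4324201, chromosome 1), also named ABIL1 for its likeness to the Arabidopsis phosphatase ABI1, went the other way. It read 10.18, 10.26 and 10.26 in sro, against 10.47, 10.73 and 10.57 in wild type, a fall of 0.36 on the log2 scale (SE 0.08, limma adjusted p = 0.0207) with no overlap. The call was lost without wild type replicate 3 or any 1 of the sro arrays, at changes of -0.37 to -0.33 and adjusted p up to 0.0741.

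The remaining measured clade A genes missed the threshold. PP2C53, also named ABIL2, a negative regulator of abscisic acid responses and drought tolerance in rice, read 9.05, 9.12 and 9.09 in sro, against 9.17, 9.26 and 9.19 in wild type. The groups did not overlap, but the log2 change of -0.12 had a 95% interval of -0.26 to 0.01 (limma adjusted p = 0.214). OsPP2C09, a phosphatase that dampens abscisic acid responses, read 9.48, 9.61 and 9.63 in sro, against 9.43, 9.74 and 9.70 in wild type (change -0.05, interval -0.27 to 0.17). OsPP2C08 read 9.76, 9.78 and 9.84 in sro, against 9.44, 10.04 and 9.89 in wild type. Its wild type arrays enclosed the sro arrays, and its change of 0.01 had an interval of -0.32 to 0.33.

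**Figure D3:**
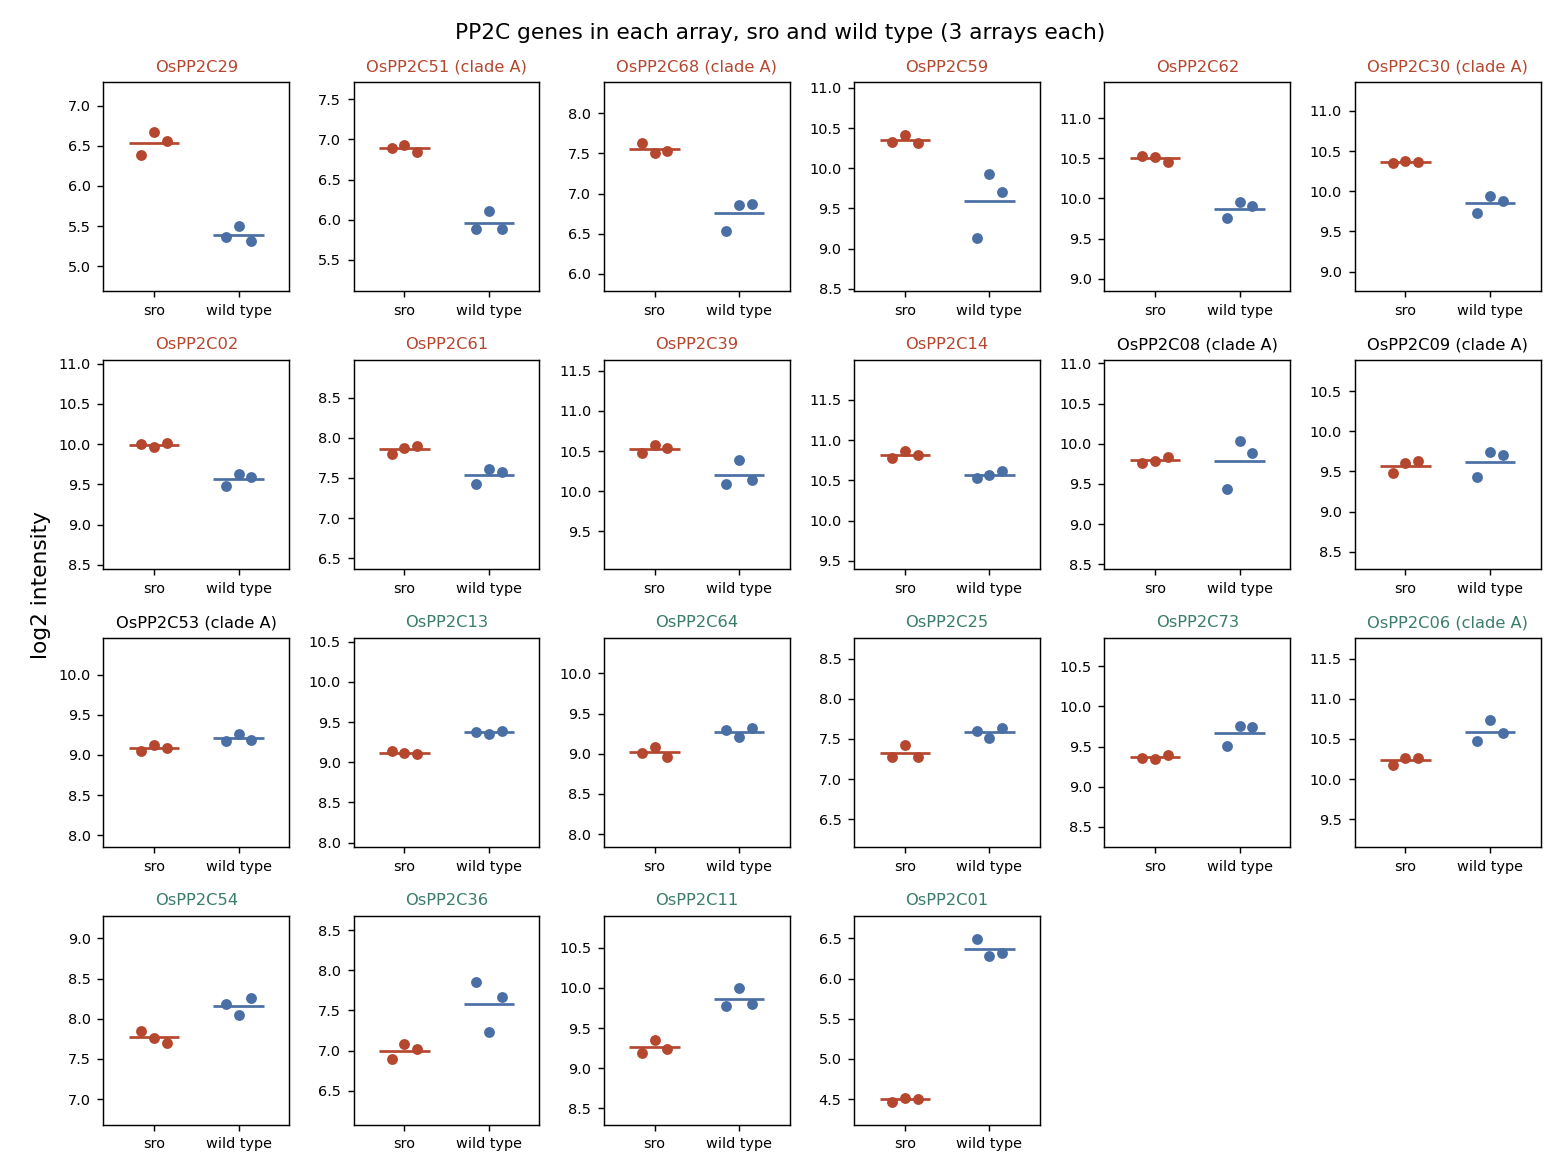
Log2 intensity in each array, sro left and wild type right, for the 19 called PP2C genes and the 3 clade A genes not called, with the same span of log2 units in each panel. Points are arrays in replicate order and lines are group means, and title colours mark genes called higher (red), lower (green) or not called (black). The groups do not overlap in any of the 19 called genes, and OsPP2C01 shows the widest gap.

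Outside clade A the rises were led by OsPP2C29 (LOC4332004, chromosome 3). It read 6.38, 6.67 and 6.56 in sro, against 5.37, 5.50 and 5.31 in wild type. The lowest sro array lay 0.88 above the highest wild type array, and the gene rose 2.21-fold (log2 change 1.14, SE 0.09, limma adjusted p = 0.000279). It was called in every fit with 1 array left out, at 1.08 to 1.22. Of its 6 nearest measured neighbours in gene order, 3 on each side, 2 were called, both lower, and none was called higher (neighbours were chosen for display after values were seen).

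OsPP2C59 (LOC4341949, chromosome 6) read 10.33, 10.41 and 10.32 in sro, against 9.13, 9.93 and 9.71 in wild type. The rise of 1.70-fold (log2 change 0.76, SE 0.18, limma adjusted p = 0.0259) rested on tight sro arrays and a wide wild type group (SD 0.42), in which replicate 1 was the lowest. Without that array the change was 0.53 and still called, whereas the call was lost without wild type replicate 3 or any 1 sro array (adjusted p up to 0.0760). OsPP2C62 (LOC4343331, chromosome 7) read 10.53, 10.52 and 10.45 in sro, against 9.76, 9.96 and 9.90 in wild type. It rose 1.55-fold (log2 change 0.63, SE 0.07, limma adjusted p = 0.00118) and was called whichever array was left out. Its second probe set, far below the Magnaporthe mean in both groups, gave -0.08 (limma adjusted p = 0.516).

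OsPP2C02 (LOC4326717, chromosome 1) read between 9.97 and 10.01 in the 3 sro arrays, against 9.48, 9.63 and 9.59 in wild type, a rise of 1.34-fold (log2 change 0.43, SE 0.06, limma adjusted p = 0.00382) called in every fit with 1 array left out. OsPP2C61 (LOC4342246, chromosome 7) read 7.80, 7.87 and 7.90 in sro, against 7.43, 7.61 and 7.57 in wild type (log2 change 0.32, limma adjusted p = 0.0189). OsPP2C61 lost its call without sro replicate 2 (change 0.32) or sro replicate 3 (change 0.30). OsPP2C14 (LOC4329347, chromosome 2) read 10.78, 10.86 and 10.81 in sro, against 10.53, 10.57 and 10.61 in wild type (log2 change 0.25, limma adjusted p = 0.0255). The OsPP2C14 call stood in only 1 of the 6 fits with an array left out, and its dim second probe set gave 0.04.

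OsPP2C39 (LOC9271405, chromosome 4) is a case where the probe sets disagree. Its bright probe set is of the shared kind, whose probes can match transcripts of more than 1 gene. There it read 10.47, 10.57 and 10.54 in sro, against 10.09, 10.39 and 10.14 in wild type (log2 change 0.32, limma adjusted p = 0.0434). Its unshared probe set was near the Magnaporthe mean and gave -0.27 (4.39 in sro and 4.67 in wild type, limma adjusted p = 0.190). The call on the shared probe set was lost in 5 of the 6 fits with 1 array left out.

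OsPP2C01 (LOC4324414, chromosome 1) had the lowest change of the family. It read 4.47, 4.52 and 4.5 in sro, against 6.49, 6.28 and 6.32 in wild type. The sro arrays lay together below the Magnaporthe mean, so the fold is a lower limit: the transcript was at least 3.18-fold lower in sro (log2 change -1.86, SE 0.07, limma adjusted p = 6.35e-06). It was called whichever array was left out, at -1.91 to -1.80. Its 6 nearest measured neighbours in gene order had log2 changes of -1.24 to -0.08, and 3 of them were called lower. Its protein's substrate is not named here.

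OsPP2C11 (LOC4328505, chromosome 2) read 9.19, 9.35 and 9.24 in sro, against 9.77 and 9.80 in wild type replicates 1 and 3, with replicate 2 higher still and a wild type mean of 9.86. It fell by 0.60 on the log2 scale (SE 0.08, limma adjusted p = 0.00274) and, like OsPP2C01, was called whichever array was left out. OsPP2C36 (LOC4334678, chromosome 3) read 6.90, 7.08 and 7.02 in sro, against 7.85, 7.23 and 7.67 in wild type. Its fall of 0.59 had a standard error of 0.15 (limma adjusted p = 0.0328), since wild type replicate 2 lay close to sro, and the call stood in 1 of the 6 fits with an array left out. OsPP2C54 (LOC4340303, chromosome 6) read 7.85, 7.76 and 7.70 in sro, against 8.18, 8.05 and 8.26 in wild type, a fall of 0.39 (limma adjusted p = 0.0113) that missed the threshold without sro replicate 3 (adjusted p = 0.0528).

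The smaller falls included OsPP2C13 (LOC4328913, chromosome 2), also named DCW11, a mitochondrial phosphatase known from pollen of a male-sterile cytoplasm of rice. It read 9.14, 9.12 and 9.10 in sro, against 9.37, 9.35 and 9.39 in wild type. Both groups were tight (SD 0.02 each) and the fall was 0.25 (limma adjusted p = 0.0195). OsPP2C64 (LOC4343629, chromosome 7) read 9.01, 9.09 and 8.96 in sro, against 9.29, 9.21 and 9.32 in wild type, a fall of 0.25 (limma adjusted p = 0.0366). OsPP2C25 (LOC4330350, chromosome 2) read 7.27, 7.43 and 7.27 in sro, against 7.60, 7.51 and 7.64 in wild type, a fall of 0.26 (limma adjusted p = 0.0449). These 3 falls stood in 2 of the 6 fits with an array left out.

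OsPP2C73 (LOC4349568, chromosome 11) has 4 probe sets. The pair of shared ones fell by 0.30 each (limma adjusted p = 0.0403 and 0.0393), and on the brighter of them the gene read 9.36, 9.35 and 9.40 in sro, against 9.51, 9.75 and 9.74 in wild type. On that probe set the call stood in only 1 of the 6 fits with an array left out (limma adjusted p up to 0.122). The unshared pair, much dimmer, gave 0.04 and -0.16 and was not called. Since shared probes may also bind another transcript, the fall cannot be assigned to OsPP2C73 alone.

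**Figure D4:**
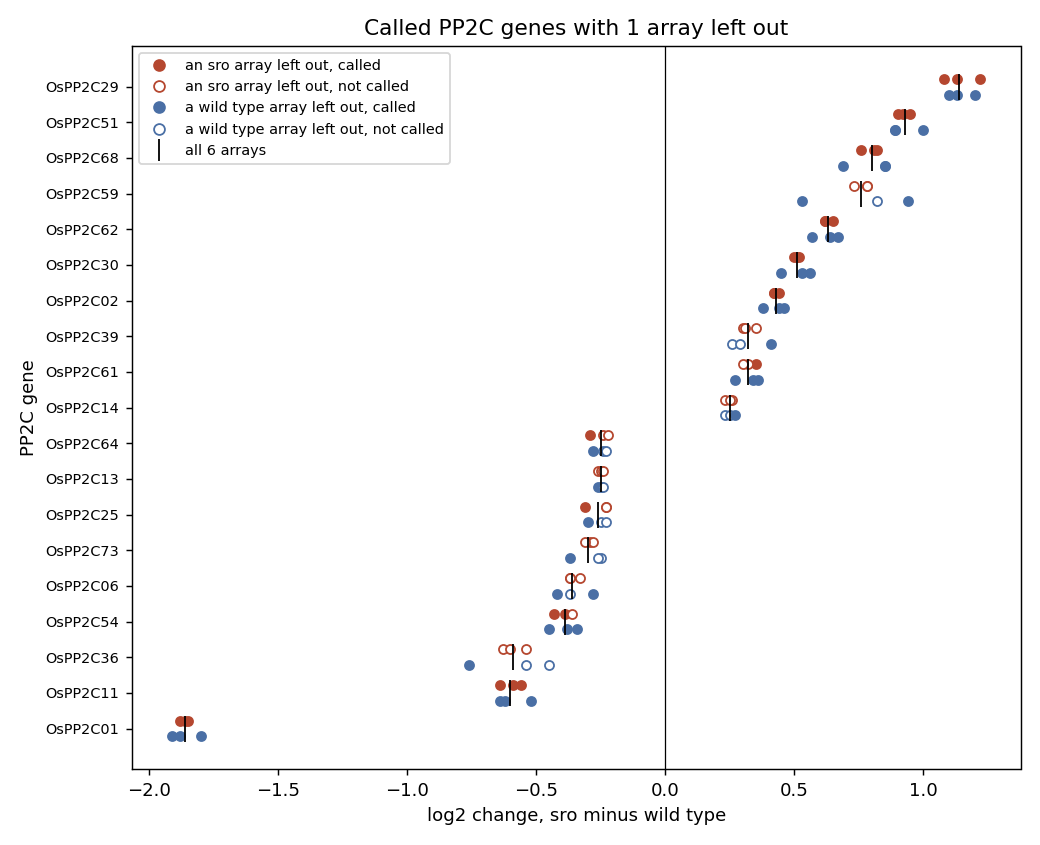
Log2 change, sro minus wild type, of the 19 called PP2C genes when 1 array is left out: an sro array (red) or a wild type array (blue). Filled points passed the threshold and open points did not, and the black tick is the value from all 6 arrays. All points of 8 genes are filled: OsPP2C01, OsPP2C02, OsPP2C11, OsPP2C29, OsPP2C30, OsPP2C51, OsPP2C62 and OsPP2C68.

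Around the threshold, OsPP2C39 (adjusted p = 0.0434) and OsPP2C25 (0.0449) lay just inside it. OsPP2C48 (0.0607) and OsPP2C28 (0.0728) lay just outside. OsPP2C48 read 8.90, 8.94 and 8.84 in sro, against 8.66, 8.73 and 8.70 in wild type, a log2 change of 0.20 with no overlap, while its other probe sets gave 0.16 and, at low signal, -0.23. OsPP2C28 read 11.15, 11.14 and 11.14 in sro, against 11.25, 11.59 and 11.44 in wild type, a change of -0.28 that passed the threshold without wild type replicate 1 (-0.37, limma adjusted p = 0.0211).

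The other uncalled members had changes between -0.22 and 0.28. They include several phosphatases with known partners. OsPP2C35, also named XB15, which dephosphorylates the immune receptor XA21, read 7.68, 7.83 and 7.77 in sro, against 7.66, 7.34 and 7.63 in wild type (change 0.21, limma adjusted p = 0.178). OsPP2C27, which acts on a MAP kinase in the cold response, had a change of -0.08 (interval -0.25 to 0.08). OsPP2C34, also named BIPP2C2 and known as inducible by benzothiadiazole, a chemical inducer of disease resistance, had a change of 0.02 (interval -0.20 to 0.25). OsPP2C40, also named OsPP65 and linked to osmotic and salt stress, had a change of -0.04 (interval -0.20 to 0.11). The last 3 intervals allow changes of at most 0.25 in size.

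Signal strength depends on the probes as well as the transcript, so members cannot be ranked by abundance. The highest signals were those of OsPP2C45 (12.43 in sro and 12.45 in wild type), OsPP2C10 (11.68 and 11.63), OsPP2C28 and OsPP2C57 (10.91 and 11.02), none of them called. OsPP2C31 was the single member whose mean over 6 arrays lay below the Magnaporthe mean (4.65 in sro and 4.54 in wild type), and OsPP2C18 lay just above it (4.99 and 4.85). Together with OsPP2C01 and OsPP2C29 these were the dimmest members.

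Several probe sets were present for 12 members. OsPP2C45 gave -0.02 and 0.03, and OsPP2C66 gave -0.11, 0.11 and -0.05, none called. In OsPP2C75 all 3 probe sets gave changes of -0.19 to -0.14, and both of OsPP2C71 gave -0.29 and -0.21, again without a call. In 44 members the probe set name carried none of the marks a, s and x. Of these, 9 rose (20.5%, against 7.28% of all genes) and 8 fell (18.2%, against 19.4%). The shares of all genes cover probe sets with and without such marks.

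Replicates were tighter in sro than in wild type. The median standard deviation over the 55 members was 0.049 in sro and 0.101 in wild type, against 0.053 and 0.081 over all genes. The sro spread was the smaller in 41 members (74.5%), against 67.7% of all genes. Among the wild type arrays, replicate 1 lay farthest from the middle value in 28 members, replicate 2 in 22 and replicate 3 in 5. Over all 17905 genes these counts were 6164, 6600 and 5141. Among the sro arrays the counts for replicates 1, 2 and 3 were 26, 16 and 13 members, against 6948, 6684 and 4273 of all genes. Of the 4 members with the widest wild type groups, OsPP2C59, OsPP2C08 and OsPP2C32 had their lowest wild type value in replicate 1, and OsPP2C36 its highest.

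Called members were found on 9 of the chromosomes that hold measured members. All 3 on chromosome 7 were called (OsPP2C61 and OsPP2C62 higher, OsPP2C64 lower). On chromosome 2, which has 12 members, 1 rose and 3 fell, and on chromosome 3, which has 9, 2 rose and 1 fell. Chromosomes 8, 10 and 12 held 4 members in all, none called. These are small counts, and 26.6% of all genes on the array were called.

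The partners of clade A were read from lists of symbols. The only receptor gene matched, OsPYL11, rose by a log2 change of 0.28 (limma adjusted p = 0.0134). Of 10 SnRK2 kinase genes, 3 rose (30%, against 7.28% of all genes), 1 fell (10%, against 19.4%) and 6 were not called. OsSAPK9 read 10.04, 10.03 and 10.04 in sro, against 9.19, 9.34 and 9.34 in wild type (change 0.75, limma adjusted p = 0.000423). Its only probe set is of the shared kind, so the rise cannot be assigned to OsSAPK9 alone. OsSAPK10 and OsSAPK6 rose by 0.36 and 0.29, and OsSAPK7 fell by 0.22. The median change of the kinase list was 0.060, against -0.055 over all genes.

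Downstream, the bZIP factor genes ABF2 and TRAB1 had changes of 0.17 and 0.14. Neither was called by limma or by an unmoderated linear model (0 of 2). Both had an unadjusted p under 0.05, as did 7963 of all 17905 genes. Among 8 genes of abscisic acid-responsive proteins, 1 was called, and it rose (12.5%, against 7.28% of all genes). EM, a late embryogenesis protein gene, read 11.73, 11.79 and 11.79 in sro, against 10.97, 11.12 and 11.01 in wild type (change 0.74, limma adjusted p = 0.000410). LEA19, another late embryogenesis gene, had the opposite sign (change -0.86, limma adjusted p = 0.110) and a wide wild type group. It read 8.20, 8.28 and 8.23 in sro, against 8.28, 9.74 and 9.27 in wild type. The only probe set of LEA19 is of the shared kind, so this change cannot be assigned to it alone. RAB16D and RAB21, dehydrin genes, had changes of 0.30 and -0.20 (limma adjusted p = 0.0532 and 0.0617). RAB16B and rab25 were not called, and wild type replicate 1 was their lowest array. RAB16B read 11.62, 12.75 and 12.39 in wild type, and rab25 read 7.63, 9.12 and 8.58. Their wild type SDs were 0.57 and 0.76, against 0.02 and 0.04 in sro, so their changes are poorly fixed. Of 6 listed hormone synthesis and breakdown genes, 3 were measured. ABA8OX2, whose enzyme breaks abscisic acid down, rose by 0.23 (33.3% of the 3, against 7.28% of all genes). The other measured ones were not called. The only probe set of ABA8OX2 is of the shared kind, so this rise cannot be assigned to it alone. ABA8OX1 read 8.58, 8.72 and 8.62 in sro, against 7.71, 9.72 and 9.24 in wild type (change -0.25, 95% interval -1.25 to 0.75).

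Across these 5 abscisic acid lists, 6 of 24 genes rose (25.0%, against 7.28% of all genes), 1 fell (4.17%, against 19.4%) and 17 were not called. The rises include OsSAPK9 and ABA8OX2, which were measured on shared probe sets only. The hormone itself was not measured.

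**Figure D5:**
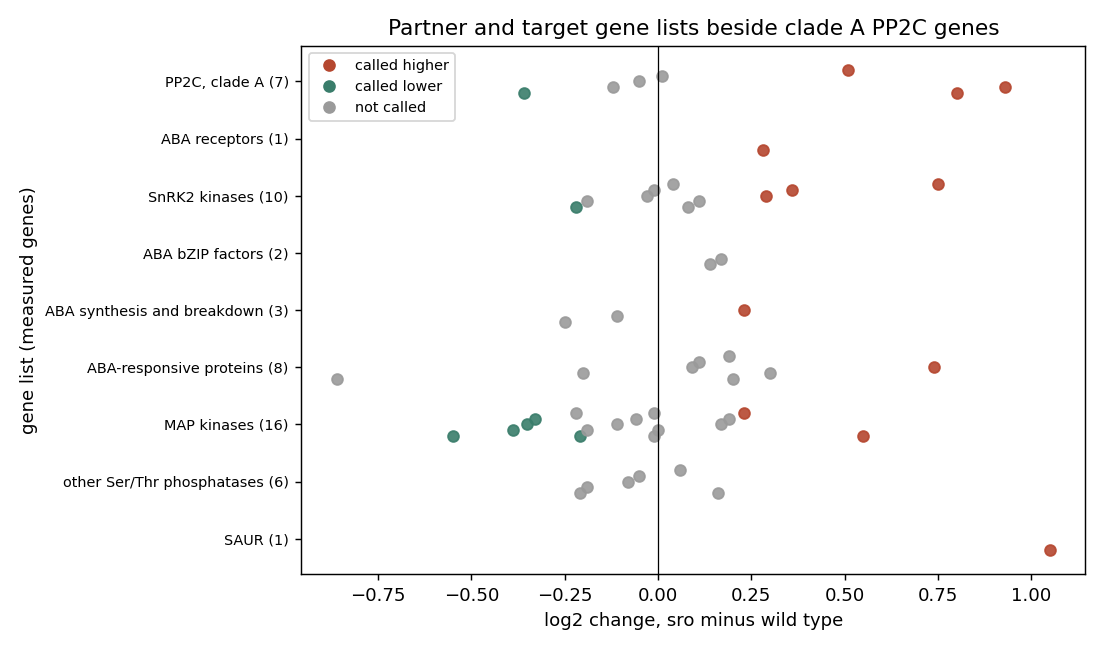
Log2 change, sro minus wild type, of each measured gene in clade A of the PP2C family and in lists of its partners, targets and other phosphatases, with the number of genes in brackets. Red points were called higher, green lower and grey not called, and vertical offsets only separate points. OsPP2C51, OsPP2C68, OsSAPK9 (on a shared probe set) and EM lie between 0.74 and 0.93.

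Substrates and inhibitors of other PP2C clades were also listed. Of 16 MAP kinase and MAP kinase kinase genes, 2 rose (12.5%, against 7.28% of all genes), 5 fell (31.2%, against 19.4%) and 9 were not called. The largest rise was LOC4332475, also named MAPK5, a kinase of disease and stress responses, at 0.55 (limma adjusted p = 0.00317), and the largest fall was MPK14 at -0.55 (limma adjusted p = 0.00157). The SAUR list held 1 gene, SAUR39, a negative regulator of auxin synthesis and transport in rice. It read 7.16, 6.57 and 6.84 in sro, against 5.69, 5.55 and 6.19 in wild type (change 1.05, limma adjusted p = 0.00936). In an unmoderated linear model SAUR39 was not called.

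Other serine/threonine phosphatases were read from a list too. None of 6 genes, the PP2A catalytic subunit genes PP2A1 to PP2A4 and the Kelch-repeat phosphatase genes BSL1 and BSL2, was called by limma (0 of 6, against 26.6% of all genes), with changes of -0.21 to 0.16. At an unadjusted p under 0.05 there were 3 of the 6, against 7963 of all 17905 genes. An unmoderated linear model called 1 of the 6, against 3164 of all genes.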

How the data were processed

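The deposited values are log2 intensities per probe set, 1 column per array. The submitters' processing notes name RMA (an array summarization method) and Partek, with no version or role. Their settings are not stated in the labels. The values themselves showed a log2 scale. Of 57381 probe sets, 123 Affymetrix controls were left out, and no further normalization or filter was applied.

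Probe sets were named through GEO's platform annotation (22436 with 1 gene, 95 with several, which were not used), and all 17905 genes matched RefSeq's ASM3414082v1 table, used only for symbols, chromosomes and the order of genes. limma 3.58.1 in R 4.3.3 (lmFit, eBayes, no covariates, two-sided) compared sro with wild type, with Benjamini-Hochberg adjustment over all 57258 probe sets. It was tested on simulated data. Adjusted p under 0.05 is a call, and each adjusted p is limma's. p-values measure the spread between these arrays, whose number limits precision.

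Where the dimmer group averaged below the 10 Magnaporthe probe sets, the fold is a lower limit, with each dim array's value raised to its Magnaporthe mean where it lay below that. Named are all called and clade A members, the 4 brightest and dimmest, members next to the threshold and members whose probe sets disagree. XB15, OsPP2C27, BIPP2C2, OsPP65 and LEA19 and the neighbouring genes were added after their values were seen. Clade A was taken from a list of family names (OsPP2C37 was not analysed here), since protein sequences were not used. A list of proton pump genes matched no usable symbol. Members and lists were chosen with earlier results of these data known. Python 3.11.15, pandas 2.3.3 and matplotlib 3.10.9 made names and figures.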

Additional observations from a re-analysis of the deposited data

How the results depend on the processing

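The 10 rises and 9 falls in the family were recounted under 16 other settings, and no named member reversed a call. Leaving out 1 array gave 6 to 9 rises, 2 to 10 falls and 4589 to 7907 called probe sets (8377 with all arrays). With sro replicate 2 alone, where the lone array is assumed to vary like wild type, there were 2 rises, 1 fall and 668 called probe sets. An unmoderated linear model gave 3 falls and 4965 called probe sets, and repeated quantile normalization gave 5 falls. The labels state no pairing by replicate number. Same-numbered arrays did not deviate together over all probe sets (correlations of -0.019, -0.0281 and -0.00367). Many of those probe sets have low signal, so the correlations cannot exclude a pairing. With a replicate block there were 9 rises and 4 falls. An intensity trend, median centring, array weights, a filter at the Magnaporthe mean, 1 probe set per gene and the mean of a gene's probe sets gave 8 to 11 rises and 8 to 11 falls. With 1 probe set per gene, 2 of 2 bZIP factors, 3 of 8 abscisic acid-responsive proteins and 3 of 6 other phosphatases were called. Under this setting, which adjusts over fewer features, 38% of all genes were called. Only OsPP2C01, OsPP2C29 and OsPP2C51 were called under all 16 settings, and the causes of the lost calls were not tested. For members at the Magnaporthe level the signal limits what can be seen.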
